A study of Mus musculus with 2 samples.

Results

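The genes described here are the nuclear-encoded subunits of oxidative phosphorylation, followed across the cell types of the embryonic mouse cortex. They were taken by symbol alone: all genes named *Ndufa*, *Ndufb*, *Ndufc*, *Ndufs* or *Ndufv* with a number, all *Uqcr*, *Cox4* to *Cox8* and *Atp5* genes, and *Sdha*, *Sdhb*, *Sdhc* and *Sdhd*. The rule gave 83 of the 32285 genes listed in each library, with 35 in complex I, 4 in complex II, 8 in complex III, 19 in complex IV and 17 in complex V. *Ndufa4* is counted in complex IV, where its protein is known to sit in spite of its name. The study asked how migrating inhibitory interneurons act on the progenitors of the cortex, and these single-cell libraries served to look for signals between such cells. Cerebral cortex was taken at embryonic day (E) 16.5 from control embryos of an Eomes-Cre line whose genotype is given as WT, and dissociated with papain. Both libraries belong to this single WT group, with no treated or mutant group beside it, so every comparison lies between cell types of the same libraries. Replicates 1 and 2 only name the libraries. The study's sample list counts embryos for a wider dataset and not per library. It describes those embryos as C57BL6/J, where the labels name the Eomes-Cre line. It also names basal telencephalon as a source of cells. The study's main text names the dorsal telencephalon for this stage, a supplementary legend names cortices, and the labels name cerebral cortex. Whether each library holds 1 embryo or several, and whether a control embryo carried the Cre allele, is not given in the sources used here. The shift common to all types of a library is removed by the fit. A p-value thus measures only how cell types scatter between these 2 samples, which may be technical. This scatter is estimated over all 13 cell types together, and not for a compared pair alone.

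Oxidative phosphorylation takes place in the inner mitochondrial membrane. Complexes I and II pass electrons from NADH and succinate to ubiquinone, complex III passes them to cytochrome c and complex IV to oxygen, and complex V uses the resulting proton gradient to make ATP. Most subunits are encoded in the nucleus and imported, while a small core set is encoded in mitochondrial DNA, and neural progenitors are known for relying on glycolysis more than neurons do.

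Replicate 1 held 46398156 UMIs (unique molecular identifiers, each standing for 1 captured mRNA molecule) in 9049 barcodes, and replicate 2 held 64324236 in 13556. Cells with 1500 to 60000 UMIs and under 10% mitochondrial UMIs were kept, 5966 in replicate 1 and 10247 in replicate 2, and 40 barcode sequences occurred in both libraries. A cell was given a type from marker genes, none of which is a subunit gene, and a name such as radial glial cell (RGC) stands for RGC-like cells by those markers. A type was assigned to 41.9% and 40.6% of the kept cells, and 13 of 16 types had at least 20 cells in each library. Of 83 further markers that took no part in the assignment, 77 were higher in their type than in the other cells of both libraries. *Sla* in newborn excitatory neurons, *Slc17a6* in deep-layer neurons, *Hes5* in GABAergic progenitors, *Calb2* in interneurons of the caudal ganglionic eminence (CGE), and *Adora2a* and *Ppp1r1b* in striatal projection neurons were not. The tissue is labelled as cerebral cortex, yet striatal projection neurons made up 1.46% and 1.16% of the kept cells and dividing GABAergic progenitors 3.13% and 3.39%. Counts were summed per library and type, and the 26 sums held between 181049 and 10160882 UMIs. Levels are given as CPM, the UMIs of a gene scaled to 1000000 UMIs of such a sum, which are compared between cell types for a given gene and not between genes.

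Among the 13 cell types compared, nuclear-encoded subunit transcripts took the largest share of UMIs in mural cells and fibroblasts, and the smallest in deep-layer, MGE and CGE neurons. The 83 genes made up 3.28% ± 0.107 (SD, n = 2) of the UMIs of mural cells, the pericytes and smooth muscle cells that wrap vessels, and 3.21% ± 0.0108 (SD, n = 2) of those of fibroblasts. In RGCs the share was 2.46% in replicate 1 and 2.54% in replicate 2, and in intermediate progenitor cells (IPCs) it was 2.60% and 2.91%. Upper-layer neurons had 1.93% and 2.15%, deep-layer neurons 1.76% and 2.01%, and interneurons of the medial ganglionic eminence (MGE) 1.64% and 2.06%. Both libraries of RGCs, IPCs, mural cells and fibroblasts lay above both libraries of each of these 3 neuron types, whose ranges overlapped. Not all progenitors and neurons were separated in this way. Newborn excitatory neurons, at 2.34% and 2.42%, also lay above the 3 neuron types, and GABAergic progenitors, at 2.14% and 2.37%, overlapped with both newborn and upper-layer neurons. Thinning every cell to 1500 UMIs gave 2.34% in RGCs, 1.96% in upper-layer neurons and 1.77% in MGE interneurons, and the shares of RGCs, endothelial cells and fibroblasts moved by more than the SD of the libraries.

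**Figure D1:**
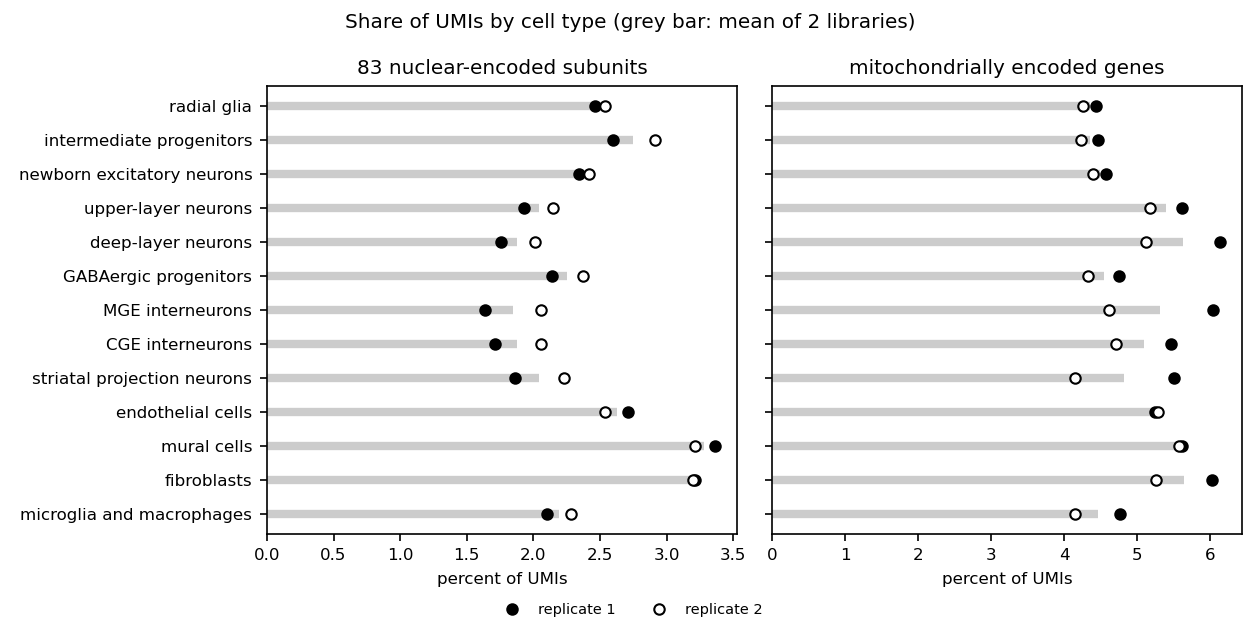
Share of UMIs taken by the 83 nuclear-encoded subunit genes (left) and by the mitochondrially encoded genes (right) in 13 cell types. The horizontal axes give percent of the UMIs of a cell type, starting at 0, filled and open points are replicates 1 and 2, and grey bars are their mean. Mural cells at 3.36% and 3.21% and fibroblasts at 3.21% and 3.20% lead on the left. On the right deep-layer neurons reach 6.13% and 5.12%, fibroblasts 6.02% and 5.26% and mural cells 5.61% and 5.57%. RGCs lie there at 4.44% and 4.26%.

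Among RGCs, upper-layer neurons and MGE interneurons, the mitochondrially encoded genes were ordered differently. They took 4.44% and 4.26% of the UMIs of RGCs, 5.61% and 5.17% of those of upper-layer neurons, and 6.04% and 4.61% of those of MGE interneurons, with the limit of 10% on this share acting on all cells. Fibroblasts, at 6.02% and 5.26%, and mural cells, at 5.61% and 5.57%, stood high here as well, near deep-layer neurons at 6.13% and 5.12%. Library sizes also differ between types in what fills them. Cytosolic ribosomal protein genes took 13.5% and 13.7% of the UMIs of RGCs, 8.99% and 10.4% in upper-layer neurons and 20.8% and 20.9% in fibroblasts. With ribosomal, mitochondrial and globin genes taken out of the totals, the subunit share was still 3.02% and 3.13% in RGCs against 2.28% and 2.56% in upper-layer neurons, and 4.46% and 4.41% in fibroblasts.

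By complex, the order was much alike. Complex I took 0.763% ± 0.0185 (SD, n = 2) of the UMIs of RGCs, 0.621% ± 0.0339 of those of upper-layer neurons and 0.911% ± 0.0326 of those of mural cells. Complex II, which has few subunits and low counts, took 0.0388% ± 0.0011 (SD, n = 2) in RGCs, 0.0263% ± 0.000221 in upper-layer neurons and 0.0486% ± 0.00424 in mural cells. For complex V the values were 0.770% ± 0.00938, 0.618% ± 0.0451 and 1.01% ± 0.0395 (SD, n = 2). Of the 78 members with enough counts to be tested, 61 had their highest mean CPM in mural cells or fibroblasts and 56 their lowest in upper-layer, deep-layer, MGE, CGE or striatal neurons, with 18 lowest in microglia. Among the 76 of these that had UMIs in all types, the ratio of the highest to the lowest type had a median of 2.05 and ran from 1.41 for *Cox7a2* to 4.81 for *Cox8a*. The 5 members outside the test were isoform genes with almost no UMIs. *Cox8b* had 1 UMI over all kept cells of both libraries, *Cox8c* had 1 and 2, *Cox6a2* 3 and 5, *Cox7b2* 33 and 35, and *Cox7a1* 48 and 83. All but *Cox8c* and *Cox7b2* are known as the heart and skeletal muscle forms of their subunits.

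Upper-layer neurons and RGCs differed in 20 of the 78 subunits tested, among them genes of complexes I, II, III, IV and V. *Sdha*, *Sdhc* and *Sdhd* of succinate dehydrogenase, *Atp5g2* and *Atp5e* of ATP synthase, and *Ndufs8*, *Ndufc2* and *Ndufa3* of complex I were lower in upper-layer neurons. Of 78 members tested, 15 were called lower and 5 higher in upper-layer neurons, where a call is a Benjamini-Hochberg adjusted p under 0.05 among all 14986 genes fitted by edgeR (quasi-likelihood). In the same comparison 26.3% of all genes were called lower and 30.9% higher and of the members 19.2% and 6.41%, a difference that was not tested. The median log2 fold change was -0.02 over the members and 0.12 over all genes, with the central members between -0.25 and 0.09 (quartiles) and the central genes between -0.63 and 0.76.

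The split of these calls depends on the scaling between libraries. With ribosomal, mitochondrial and globin genes left out, an alternative chosen after seeing the data, the median of all genes moved from 0.12 to -0.06, and 33 members (42.3%) were called lower and 1 higher. With library totals alone, 40 members (51.3%) were called lower and 1 higher. The median of the members minus that of all genes was -0.14 with the TMM factors used here. It was -0.15 with those genes left out and -0.14 with library totals alone. A change of scaling shifts all genes about alike, so this difference could hardly move between these runs. It was -0.07 with a mitochondrial limit of 5% and -0.04 without a filter on low counts. Of the 5 members called higher, *Ndufa8* kept its call with those genes left out, and *Ndufb2*, *Cox5a*, *Atp5md* and *Ndufb10* lost it. Because of the normalization, fitted fold changes in this comparison are shifted upward from the ratios of the CPM.

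Complex II oxidizes succinate in the tricarboxylic acid cycle and is the only complex of the chain with no mitochondrially encoded subunit. *Sdha* (chromosome 13, 74322255 to 74350240, GRCm38.p6), the catalytic flavoprotein, had 112 and 99.1 CPM in replicates 1 and 2 of RGCs, against 64.0 and 57.6 CPM in upper-layer neurons. Both RGC libraries lay above both neuron libraries, and the log2 fold change was -0.58 ± 0.12 (SE; adjusted p = 1.1e-04). *Sdhc* (chromosome 1, 171129157 to 171150640), a membrane anchor, had 97.3 and 84.8 CPM in RGCs and 54.1 and 50.5 CPM in upper-layer neurons, again without overlap (log2 fold change -0.58 ± 0.12 (SE), adjusted p = 1.3e-04). The other anchor, *Sdhd* (chromosome 9, 50596340 to 50603849), had 64.1 and 65.1 CPM in RGCs against 45.1 and 39.6 CPM, with a log2 fold change of -0.40 ± 0.14 (SE; adjusted p = 0.0178). *Sdhb*, the iron-sulfur subunit, had 122 and 131 CPM in RGCs against 101 and 114 CPM and was not called (log2 fold change -0.01 ± 0.13 (SE), adjusted p = 0.938). *Sdha* and *Sdhc* were also called lower with ribosomal, mitochondrial and globin genes left out, each at -0.76 on the log2 scale.

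Proximal sequences of subunits that moved between RGCs and upper-layer neurons are shown because nuclear respiratory factor 1 (NRF1) and the ETS factor GABPA are known regulators of this gene family. Of the 83 members, 67 had an entry in the RefSeq promoter table (GRCm38.p6), with 250 bases before and 50 after the start of transcription. Those without one included *Atp5a1*, *Atp5f1*, *Atp5mpl*, *Cox4i1*, *Cox4i2*, *Cox6a2*, *Cox6c*, *Cox8c*, *Ndufa2*, *Ndufb9*, *Ndufs1*, *Sdhc*, *Uqcrb*, *Uqcrc2* and *Uqcrq*. The letters GCGCANGCG, the core of the NRF1 motif, occurred on either strand in 29.9% of these members and in 7.0% of the 27025 genes of the table. CCGGAAG, the ETS motif, occurred in 25.4% and 9.9%, and AANATGG, the YY1 motif, in 28.4% and 18.2%. A match is a run of letters and not a measured binding site. The 250 bases before the start are printed 5′ to 3′ on the strand of the gene, which is the minus strand for each, with matches to any of these motifs in capitals; *Sdha*, *Sdhd*, *Atp5g2* and *Atp5e* are members that were lower in upper-layer neurons, *Ndufa8* was higher, and *Cox6b2* was among the most unequal between cell types.
Sdha, chr13:74350241-74350490: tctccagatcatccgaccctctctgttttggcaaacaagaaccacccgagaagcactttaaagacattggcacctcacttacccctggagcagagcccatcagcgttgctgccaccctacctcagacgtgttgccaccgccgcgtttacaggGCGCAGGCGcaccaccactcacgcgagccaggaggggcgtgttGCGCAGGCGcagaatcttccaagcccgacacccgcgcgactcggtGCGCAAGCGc
Sdhd, chr9:50603850-50604099: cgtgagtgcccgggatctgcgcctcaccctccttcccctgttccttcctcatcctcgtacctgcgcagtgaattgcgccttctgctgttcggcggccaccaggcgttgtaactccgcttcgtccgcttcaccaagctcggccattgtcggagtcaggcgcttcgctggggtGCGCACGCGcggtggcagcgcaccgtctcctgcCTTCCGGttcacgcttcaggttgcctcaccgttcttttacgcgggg
Atp5g2, chr15:102671048-102671297: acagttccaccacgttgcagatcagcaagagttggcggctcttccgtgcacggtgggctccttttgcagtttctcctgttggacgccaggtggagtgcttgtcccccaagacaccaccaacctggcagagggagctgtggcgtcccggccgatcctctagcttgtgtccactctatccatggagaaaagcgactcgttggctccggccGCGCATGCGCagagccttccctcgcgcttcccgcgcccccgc
Atp5e, chr2:174464102-174464351: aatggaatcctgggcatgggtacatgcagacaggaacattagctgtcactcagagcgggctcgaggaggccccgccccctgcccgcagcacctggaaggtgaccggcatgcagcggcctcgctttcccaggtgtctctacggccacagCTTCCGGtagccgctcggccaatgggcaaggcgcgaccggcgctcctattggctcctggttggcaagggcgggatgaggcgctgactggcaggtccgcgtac
Ndufa8, chr2:36049339-36049588: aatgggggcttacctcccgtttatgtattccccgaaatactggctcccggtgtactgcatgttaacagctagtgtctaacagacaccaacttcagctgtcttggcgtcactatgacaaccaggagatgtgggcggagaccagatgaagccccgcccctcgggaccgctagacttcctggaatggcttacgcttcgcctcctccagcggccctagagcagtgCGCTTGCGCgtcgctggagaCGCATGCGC
Cox6b2, chr7:4753095-4753344: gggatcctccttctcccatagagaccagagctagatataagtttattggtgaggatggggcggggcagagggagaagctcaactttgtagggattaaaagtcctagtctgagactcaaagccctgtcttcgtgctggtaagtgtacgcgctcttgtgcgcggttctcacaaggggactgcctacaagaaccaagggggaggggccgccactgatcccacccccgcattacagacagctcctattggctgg
*Sdha* holds 3 NRF1 matches, which begin between 98 and 10 bases before the start. *Sdhd* holds 1, beginning 79 bases before the start, and 1 ETS match that begins 46 bases before it. *Atp5g2* holds 2 NRF1 matches that overlap on opposite strands, and *Ndufa8*, which moved the other way, holds 2 separate ones that begin 29 and 9 bases before the start. *Atp5e* holds 1 ETS match, and *Cox6b2* holds none of the 3 motifs.

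*Atp5g2* (chromosome 15, 102662868 to 102671047) is a gene for the c subunit, which forms the rotor ring of ATP synthase. It had 688 and 652 CPM in RGCs and 336 and 370 CPM in upper-layer neurons, with no overlap and a log2 fold change of -0.70 ± 0.16 (SE; adjusted p = 3.3e-04). *Atp5e*, the epsilon subunit of the catalytic part, had 814 and 803 CPM against 446 and 533 CPM (log2 fold change -0.51 ± 0.15 (SE), adjusted p = 0.0045). In complex I the largest fall was that of *Ndufs8*, an iron-sulfur subunit of the matrix arm, with 92.9 and 88.3 CPM in RGCs and 47.9 and 49.4 CPM in upper-layer neurons (log2 fold change -0.67 ± 0.13 (SE), adjusted p = 2.6e-05). The accessory subunit *Ndufc2* followed, with 599 and 589 CPM against 315 and 332 CPM (log2 fold change -0.65 ± 0.15 (SE), adjusted p = 4.3e-04). *Uqcr10* was the called member of complex III, at -0.45 ± 0.16 (SE; adjusted p = 0.0151). *Ndufa8*, an accessory subunit facing the intermembrane space, had 130 and 140 CPM in RGCs and 161 and 160 CPM in upper-layer neurons. It was higher in both libraries, at a log2 fold change of 0.47 ± 0.11 (SE; adjusted p = 3.8e-04). In this comparison 8 of 10 dissociation-response genes, such as *Fos*, were called lower in upper-layer neurons and none higher, with a median log2 fold change of -2.44, and 14 of 49 cytosolic ribosomal protein genes were called lower. The part of these differences in the subunit values was not tested.

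**Figure D2:**
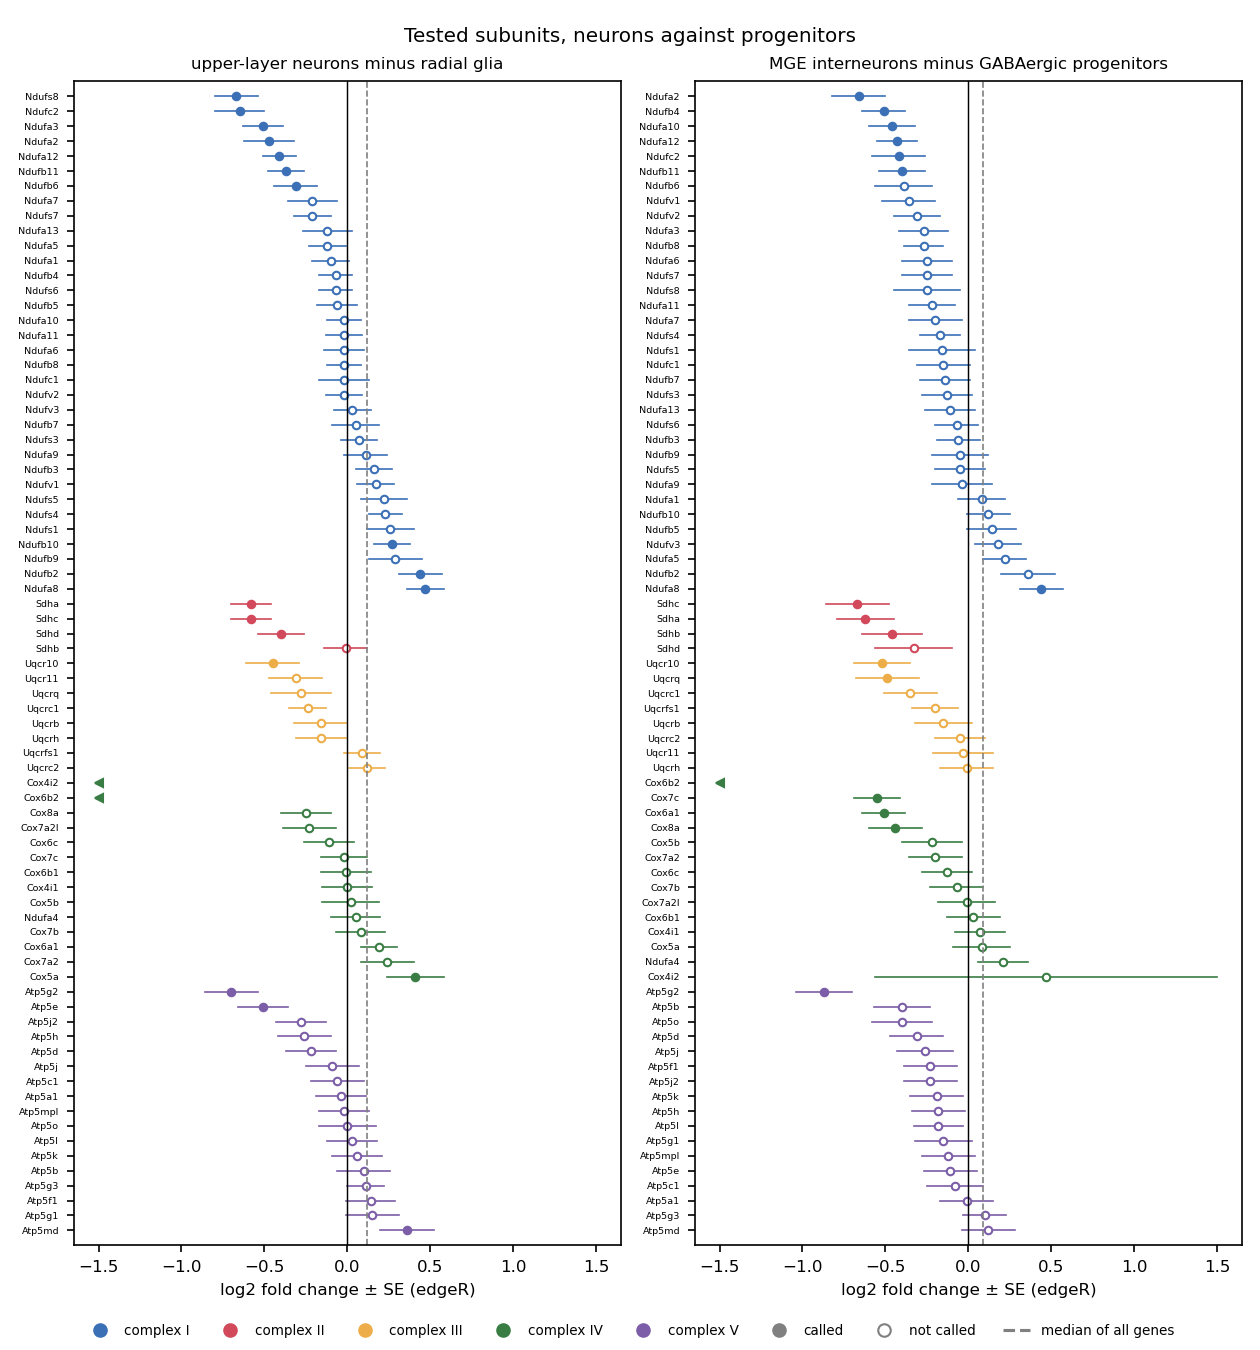
Log2 fold change of 77 of the 78 subunit genes tested between upper-layer neurons and RGCs (radial glia; left) and between MGE interneurons and GABAergic progenitors (right), coloured by complex. Points are edgeR estimates with bars of 1 SE, filled points are called and arrowheads mark values beyond the axis, the solid line is 0 and the dashed line the median of all genes, which is 0.12 on the left and 0.09 on the right. Complex II lies at or left of 0 in both panels, and 61 and 67 of the members drawn lie left of the dashed line.

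*Atp5g2*, *Sdhc*, *Sdha*, *Sdhb*, *Ndufa2*, *Cox7c*, *Cox6a1* and *Ndufb4* were lower in MGE interneurons than in dividing GABAergic progenitors, and *Ndufa8* was higher. Of 78 members tested, 16 were called lower and 1 higher, at 20.5% and 1.28%, beside 15.5% and 19.9% of all genes. The median log2 fold change was -0.19 over the members and 0.09 over all genes, and 68 members lay below the latter. With ribosomal, mitochondrial and globin genes left out, 37 members were called lower and 0 higher. MGE interneurons had median depths of 3232 and 3603 UMIs and GABAergic progenitors of 6118 and 5255. With cells thinned to 1500 UMIs 12 members were called lower and 0 higher. Without doublets 34 were called lower and 1 higher, and with a mitochondrial limit of 20% 8 and 1.

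*Atp5g2* had 661 and 644 CPM in GABAergic progenitors and 288 and 375 CPM in MGE interneurons (log2 fold change -0.87 ± 0.17 (SE), adjusted p = 6.6e-05). *Sdha* had 98.2 and 91.3 CPM against 57.0 and 57.4 CPM, at -0.62 ± 0.17 (SE; adjusted p = 0.0044). *Sdhc* had 74.2 and 70.7 CPM against 37.7 and 45.8 CPM, at -0.67 ± 0.19 (SE; adjusted p = 0.0043). The libraries of progenitors and neurons did not overlap for any of these 3 genes. *Sdhb* had 106 and 123 CPM in progenitors and 61.2 and 92.3 CPM in MGE interneurons, and it was called at -0.46 ± 0.18 (SE; adjusted p = 0.0411), whereas *Sdhd* was not, at -0.33 ± 0.23 (SE; adjusted p = 0.275). *Ndufa2*, an accessory subunit of complex I, had 449 and 466 CPM against 258 and 283 CPM, at -0.66 ± 0.16 (SE; adjusted p = 9.7e-04). *Ndufa8* had 136 CPM in both progenitor libraries and 153 and 188 CPM in MGE interneurons, at 0.44 ± 0.13 (SE; adjusted p = 0.00925).

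Called lower in both lineages were 9 members, *Atp5g2*, *Cox6b2*, *Ndufa12*, *Ndufa2*, *Ndufb11*, *Ndufc2*, *Sdha*, *Sdhc* and *Uqcr10*. They are 60.0% of the 15 called lower in upper-layer neurons and 56.2% of the 16 called lower in MGE interneurons. Over all genes the corresponding shares were 38.6% of 3946 and 65.4% of 2329. *Ndufa8* was the member called higher in both. These 2 comparisons use different cells of the same libraries, and lineage here names a pairing of cell types: whether these GABAergic progenitors give rise to these MGE interneurons was not tested.

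The difference between both lineages was tested itself, as the change from RGCs to upper-layer neurons minus that from GABAergic progenitors to MGE interneurons. Of 78 members, 4 were called higher and 1 lower, beside 12% and 11.1% of all genes. *Cox6a1*, a nuclear-encoded subunit of cytochrome c oxidase, had 251 and 269 CPM in RGCs and 238 and 273 CPM in upper-layer neurons. In the other lineage it had 269 and 281 CPM in progenitors and 143 and 217 CPM in MGE interneurons. Thus only the second pair was free of overlap, and the difference was 0.70 ± 0.17 on the log2 scale (SE; adjusted p = 0.00248). *Cox7c* differed by 0.53 ± 0.20 (SE; adjusted p = 0.0468), *Ndufv1* by 0.52 ± 0.19 (SE; adjusted p = 0.047) and *Ndufb4* by 0.44 ± 0.16 (SE; adjusted p = 0.0425), all close to the threshold. With ribosomal, mitochondrial and globin genes left out, 1 member was called higher and 2 lower, and *Cox6a1* kept its call while the last 3 did not. *Cox4i2* was called lower but had 3 and 1 UMIs in GABAergic progenitors and 2 in each library of MGE interneurons. Of the dissociation-response genes, 5 of 10 were called lower in the same contrast.

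Between IPCs and RGCs the subunits differed little. *Cox7a2l*, *Uqcrfs1* and *Ndufa6* were higher in IPCs and *Cox4i2* lower, which is 3 members called higher and 1 lower of 78, beside 6.73% and 13.1% of all genes. *Cox7a2l*, which is known for joining complexes III and IV into supercomplexes, had 306 and 292 CPM in RGCs and 439 and 399 CPM in IPCs (log2 fold change 0.47 ± 0.17 (SE), adjusted p = 0.038). *Uqcrfs1*, the Rieske iron-sulfur protein of complex III, had 110 and 120 CPM against 160 and 156 CPM (log2 fold change 0.45 ± 0.13 (SE), adjusted p = 0.0126). Neither gene overlapped between the types. The median log2 fold change was 0.12 over the members and -0.13 over all genes, and 6 members lay below the latter. With ribosomal, mitochondrial and globin genes left out 6 members were called higher and 1 lower. With only these types in the fit 15 and 1 were called, but that fit leaves 1 residual degree of freedom per gene. The share of all genes called in it is not given here. No member was called with cells thinned to 1500 UMIs, and the *Ndufa6* call was also lost with DESeq2, without the library term and without doublets.

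*Cox7a2l* and *Uqcrh* were lower in upper-layer than in newborn excitatory neurons. Upper-layer neurons had 207 and 229 CPM of *Cox7a2l*, and newborn excitatory neurons 402 and 407 CPM, so that the gene was high in IPCs and newborn neurons and low on either side of them. Its log2 fold change was -0.76 ± 0.17 (SE; adjusted p = 0.00113). *Uqcrh*, the hinge protein of complex III, had 668 and 772 CPM in newborn neurons and 425 and 492 CPM in upper-layer neurons (log2 fold change -0.53 ± 0.16 (SE), adjusted p = 0.022), a call lost without a filter on low counts, without the library term and with a mitochondrial limit of 20%. These 2 of 78 compare with 3.84% of all genes called lower, and 0 members stand beside 8.03% called higher. At an unadjusted p under 0.05, 6 members were lower and 1 higher, and DESeq2 called 5 lower and 0 higher. With only the compared cell types in the fit, 22 of 76 members (28.9%) were called lower. That fit leaves 1 residual degree of freedom, and its share of all genes called is not given.

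Upper-layer and deep-layer neurons, the later-born and earlier-born excitatory neurons, differed in *Ndufv1* and *Ndufs3*. *Ndufv1*, which binds NADH at the entry of complex I, had 89.8 and 86.9 CPM in upper-layer and 70.0 and 64.1 CPM in deep-layer neurons, at a log2 fold change of 0.45 ± 0.12 (SE; adjusted p = 0.00825). *Ndufs3*, a core subunit of the matrix arm, had 97.7 and 101 CPM against 78.1 and 78.5 CPM, at 0.39 ± 0.12 (SE; adjusted p = 0.0211). Neither overlapped between the types. Of 12 alternatives, the *Ndufs3* call was lost in 6 and the *Ndufv1* call in 2, with DESeq2 and thinned cells among both. These 2 members called higher compare with 5.84% of all genes, and 0 called lower with 9.26%. No member was lower at an unadjusted p under 0.05, 12 were higher, and DESeq2 called none in either direction. With only the compared cell types in the fit 17 members were called higher, and without doublets 7. The median of the members was 0.18 and that of all genes 0.02, with 6 members below the latter.

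*Cox6a1*, *Ndufa10*, *Uqcrc2* and *Sdhb* were among the subunits lower in MGE interneurons than in upper-layer neurons. Of 78 members, 14 were called lower and 1 higher, 17.9% and 1.28%, beside 12.3% and 9.76% of all genes, and 9 of the 14 belong to complex I. With RLE factors 7 members were called lower, and with DESeq2 6. *Cox6a1* was lower at -0.60 ± 0.13 on the log2 scale (SE; adjusted p = 3.1e-04), with 143 and 217 CPM in MGE interneurons and 238 and 273 CPM in upper-layer neurons. *Ndufa10*, an accessory subunit of complex I, had 72.1 and 81.3 CPM against 99.5 and 117 CPM (-0.60 ± 0.13 (SE), adjusted p = 5.2e-04). *Uqcrc2*, a core protein of complex III, had 88.1 and 81.3 CPM against 114 and 116 CPM (-0.55 ± 0.13 (SE), adjusted p = 0.00138). For these genes every interneuron library lay below every upper-layer library. *Ndufa5* went the other way, with 213 and 266 CPM in MGE interneurons and 173 and 179 CPM in upper-layer neurons (0.35 ± 0.12 (SE), adjusted p = 0.0303), a call that was lost without a filter on low counts, without the library term and with mitochondrial limits of 5% and 20%. Depth differs here, at 3232 and 3603 UMIs per MGE interneuron and 7051 and 6062 per upper-layer neuron, and with cells thinned to 1500 UMIs 3 members were called lower and 1 higher. The dissociation-response genes were called higher in MGE interneurons for 3 of 10 and lower for none, and their part was not tested.

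MGE and CGE interneurons differed in *Ndufv3*, an accessory subunit next to the NADH-binding site. It had 106 and 152 CPM in MGE and 58.7 and 92.3 CPM in CGE interneurons, with a log2 fold change of 0.84 ± 0.22 (SE; adjusted p = 0.0147). Within each library the MGE value was the higher, and the 2 types did not overlap across libraries. This 1 of 78 members called higher compares with 2.7% of all genes, and 0 called lower with 1.63%. At an unadjusted p under 0.05 there were 6 members higher and 1 lower, and DESeq2 called 1 higher and 0 lower. The call was lost without the library term and with a mitochondrial limit of 5%.

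Several subunits of complexes IV and V exist in a common form and a form restricted to certain tissues, and some of these pairs differed widely between cell types. *Cox4i2* (chromosome 2, 152753916 to 152765039), the form of subunit 4 known from lung and for oxygen-sensitive regulation, had 425 and 359 CPM in mural cells. RGCs had 8.81 and 9.51 CPM, endothelial cells had 4.03 CPM and 0, fibroblasts 1.91 and 3.17 CPM, and upper-layer neurons 0.329 and 0.394 CPM. Mural cells stood clear of all other types in both libraries. The order below them rests partly on few UMIs. In replicate 1 the absence of UMIs allows up to 16.6 CPM in microglia and 8.81 CPM in CGE interneurons (3 counts). RGCs could not be set above these types there. In replicate 2 the limit in microglia was 5.47 CPM, below RGCs. CGE interneurons had 2.15 CPM there from 1 UMI, which is too few to set them below RGCs. The common form *Cox4i1* had 1720 and 1780 CPM in mural cells and 1010 and 1070 CPM in RGCs, and *Cox4i2* gave 19.8% and 16.8% of the UMIs of the pair in mural cells and 0.869% and 0.878% in RGCs.

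In RGCs the *Cox4i2* signal came from 26 UMIs in 19 of 330 cells in replicate 1 and 38 UMIs in 34 of 571 cells in replicate 2, or 5.76% and 5.95% of the cells. Upper-layer neurons, at comparable median depths of 7051 and 6062 UMIs beside 8527 and 6145, had 0.25% and 0.27%. Pooled over libraries the ratio of levels was 24.9, with a 95% exact interval of 10.85 to 70.49 that covers counting error only, and against IPCs, with 2 UMIs, it was 8.19 (2.18 to 69.1). RGCs held 1 and 0 UMIs of *Higd1b* and 5 and 6 of *Ndufa4l2*, and mural cells 693 and 749 of *Higd1b* and 504 and 546 of *Ndufa4l2*. Those RGCs that held no UMI of any mural marker, an alternative chosen after seeing the data, had 7.06 and 7.89 CPM of *Cox4i2*. All RGCs had 8.81 and 9.51 CPM. RGCs without mural markers held 12 of the 26 UMIs in 202 of 330 cells, and 19 of the 38 in 381 of 571 cells. Whether RNA from mural cells adds to the RGC values was not tested.

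*Cox6b2* (chromosome 7, 4751792 to 4753094), known as a testis form of subunit 6B, was highest in fibroblasts at 85.9 and 85.6 CPM. Mural cells had 24.2 and 41.3 CPM, RGCs 10.5 and 12.5, GABAergic progenitors 7.77 and 6.26, and IPCs 7.12 and 5.35 CPM. Upper-layer neurons had 0.822 and 1.08 CPM, and MGE interneurons 0.839 and 1.29 CPM. RGCs and IPCs lay above upper-layer neurons, and GABAergic progenitors above MGE interneurons, in both libraries. The pooled ratio was 11.8 (95% exact interval 6.87 to 21.69) between RGCs and upper-layer neurons, which were called apart at an adjusted p of 1.0e-09. Between GABAergic progenitors and MGE interneurons, with 25 and 3 UMIs, it was 6.26 (1.91 to 32.4), and the adjusted p was 0.00478. *Cox6b2* gave 10.3% and 11% of the UMIs of the pair with *Cox6b1* in fibroblasts, 1.86% and 2.04% in RGCs and 0.182% and 0.202% in upper-layer neurons.

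*Atp5g1*, *Atp5g2* and *Atp5g3* encode the same mature c subunit with different import sequences, and their balance differed between progenitors and neurons. Of the UMIs of *Atp5g1* and *Atp5g2*, the latter gave 68.4% and 63.0% in RGCs, 71.1% and 69.9% in IPCs and 69.5% and 66.6% in GABAergic progenitors. It gave 59.5% and 59.7% in newborn excitatory neurons, 52.3% and 50.7% in upper-layer neurons, 47.7% and 45.4% in deep-layer neurons and 56.5% and 56.2% in MGE interneurons. No library of a progenitor type overlapped with one of a neuron type. The higher share was not particular to progenitors. Mural cells had 68.6% and 64.2%, microglia 69.7% and 63.8%, endothelial cells 61.5% and 65.0% and fibroblasts 58.4% and 59.3%. *Atp5g1* itself had 317 and 383 CPM in RGCs and 306 and 360 CPM in upper-layer neurons, which overlap, and between *Atp5g1* and *Atp5g3* the share of *Atp5g1* was 59.9% and 63.4% in RGCs and 62.3% and 62.5% in upper-layer neurons. Shares within a library do not depend on the scaling between libraries. Related gene copies that share sequence can lose reads in counting, and the effect on these pairs was not tested.

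**Figure D3:**
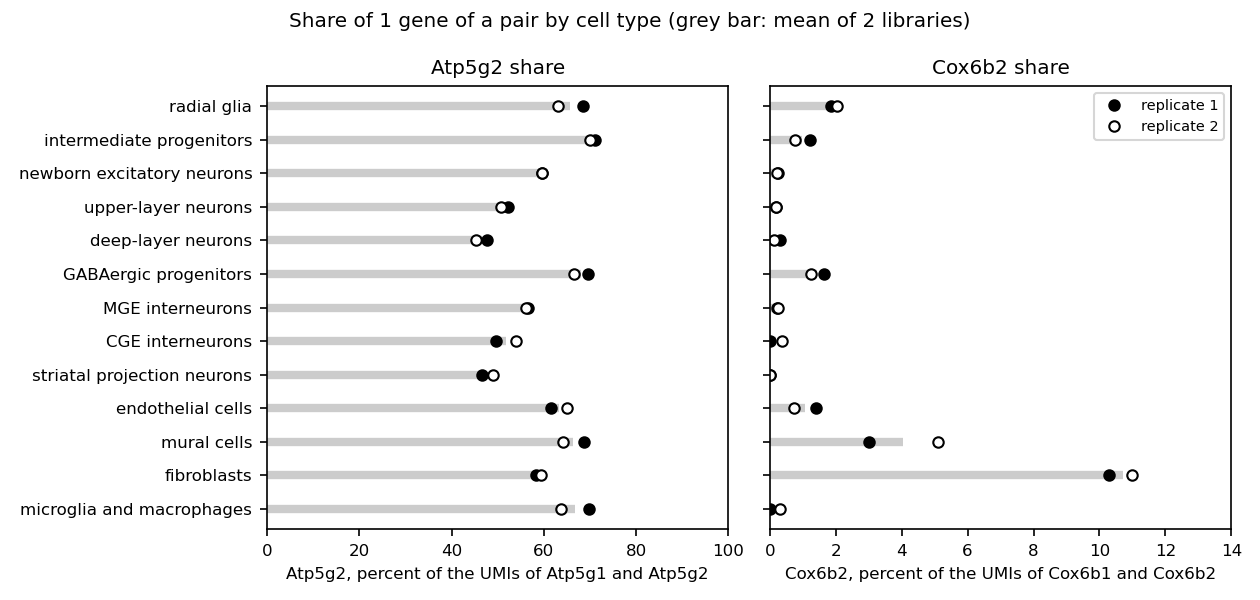
Share of *Atp5g2* in the UMIs of *Atp5g1* and *Atp5g2* (left) and of *Cox6b2* in those of *Cox6b1* and *Cox6b2* (right), in percent on axes that start at 0, for 13 cell types. Filled and open points are replicates 1 and 2 and grey bars their mean. *Atp5g2* runs from 71.1% and 69.9% in IPCs to 47.7% and 45.4% in deep-layer neurons, and *Cox6b2* reaches 10.3% and 11% in fibroblasts.

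Mural and endothelial cells are neighbours in the vessel wall, and 16 of the 17 subunits called between them were higher in mural cells. Of 78 members tested, 20.5% were called higher and 1.28% lower, beside 7.5% and 8.19% of all genes. The members called higher came from every complex, with 5 each in complexes I and IV, 3 in V, 2 in II and 1 in III. The median log2 fold change was 0.24 over the members and -0.06 over all genes. With ribosomal, mitochondrial and globin genes left out 15 were called higher and 2 lower, and with cells thinned to 1500 UMIs 9 and 1. Cells were few, at 38 and 64 mural and 43 and 106 endothelial cells, and 3 of 10 dissociation-response genes were also called higher in mural cells, whose part was not tested.

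*Cox4i2* showed the widest contrast, with 158 and 165 UMIs in mural cells and 2 and 0 in endothelial cells. The pooled ratio was 279.9, with a 95% exact interval of 76.86 to 2321.05. *Cox8a* (chromosome 19, 7215158 to 7217616), the common form of subunit 8, had 1430 and 1520 CPM in mural cells and 670 and 606 CPM in endothelial cells (1.15 ± 0.16 on the log2 scale (SE), adjusted p = 6.1e-07). *Ndufa13*, an accessory subunit of complex I, had 621 and 607 CPM against 339 and 342 CPM (0.80 ± 0.16 (SE), adjusted p = 3.1e-04). *Cox7c* had 1420 and 1280 CPM against 823 and 883 CPM (0.60 ± 0.15 (SE), adjusted p = 0.00232). In each of these the mural libraries lay above both endothelial libraries. *Cox6b2* was also higher, at a pooled ratio of 6.07 (95% exact interval 2.69 to 15.4, edgeR adjusted p = 4.4e-04). *Sdhc* and *Sdhb* of complex II were higher by 0.75 ± 0.24 (SE, edgeR adjusted p = 0.0231) and 0.65 ± 0.22 (SE, adjusted p = 0.0316). The *Sdhc* call was lost with thinned cells. That of *Sdhb* was lost with DESeq2, without the library term, and with ribosomal, mitochondrial and globin genes left out.

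*Ndufa4* (chromosome 6, 11900372 to 11907450), a late-assembling subunit of complex IV, ran against the rest. It had 307 and 241 CPM in mural cells and 754 and 750 CPM in endothelial cells (log2 fold change -1.52 ± 0.17 (SE), adjusted p = 6.1e-09). Mural cells had the lowest *Ndufa4* of all 13 types in both libraries. The next lowest were CGE interneurons at 420 and 468 CPM and striatal projection neurons at 424 and 473 CPM, which overlap each other. *Ndufa4l2* (chromosome 10, 127509274 to 127517154), its hypoxia-inducible relative and no member by the symbol rule, had 1360 and 1190 CPM in mural cells, 49.6 and 72.9 CPM in fibroblasts and 2.02 and 2.11 CPM in endothelial cells. *Higd1b*, a pericyte-enriched relative of complex IV assembly proteins, had 1860 and 1630 CPM in mural cells and 2.02 and 7.40 CPM in endothelial cells. The pooled ratios between mural and endothelial cells were 606.6 for *Ndufa4l2* (95% exact interval 206.99 to 2946.12) and 312.4 for *Higd1b* (158.12 to 724.97).

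**Figure D4:**
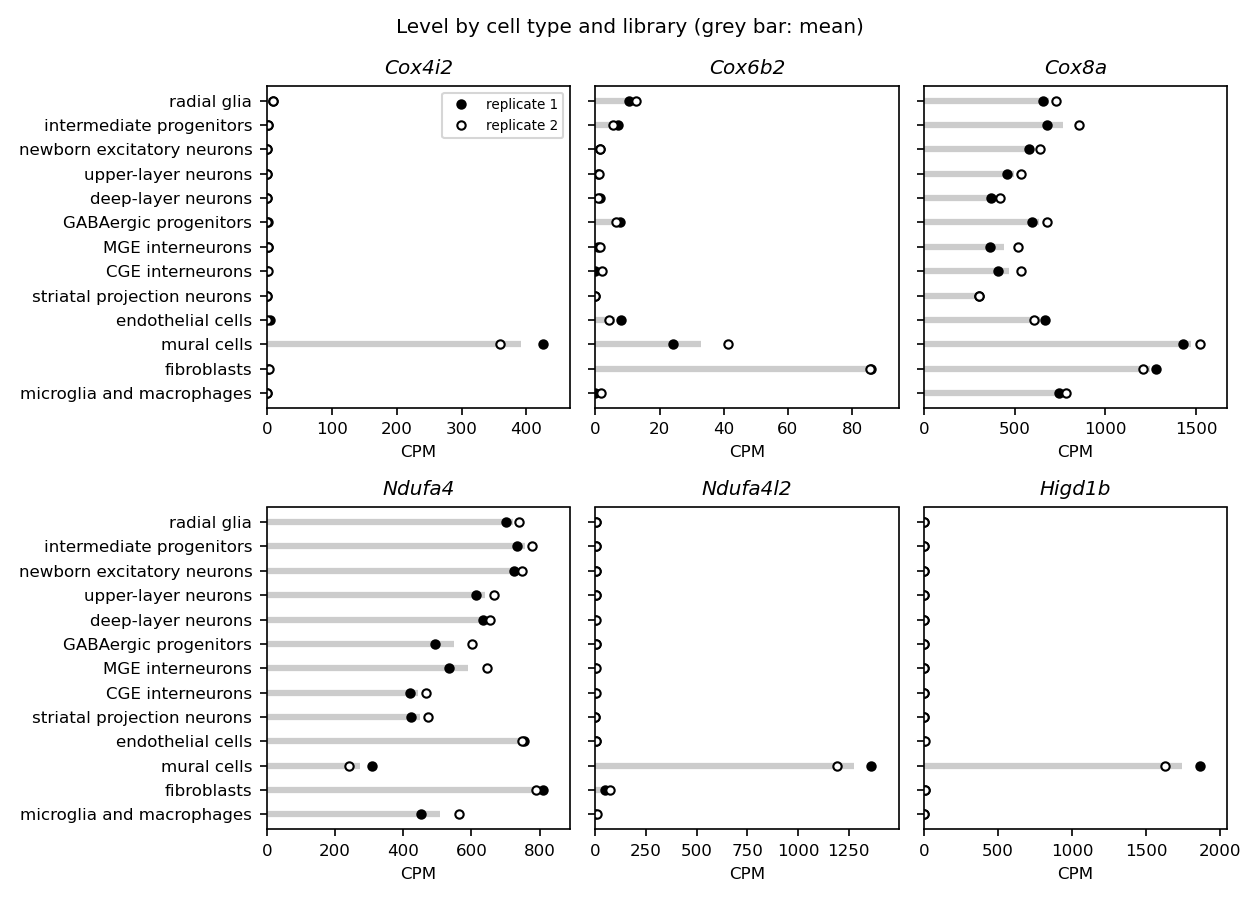
CPM of 4 subunit genes and of *Ndufa4l2* and *Higd1b* in 13 cell types, each on its own axis from 0. Filled and open points are replicates 1 and 2 and grey bars their mean. *Cox4i2*, *Ndufa4l2* and *Higd1b* peak in mural cells, *Cox6b2* in fibroblasts at 85.9 and 85.6 CPM, and *Ndufa4* is lowest in mural cells at 307 and 241 CPM.

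**Figure D5:**
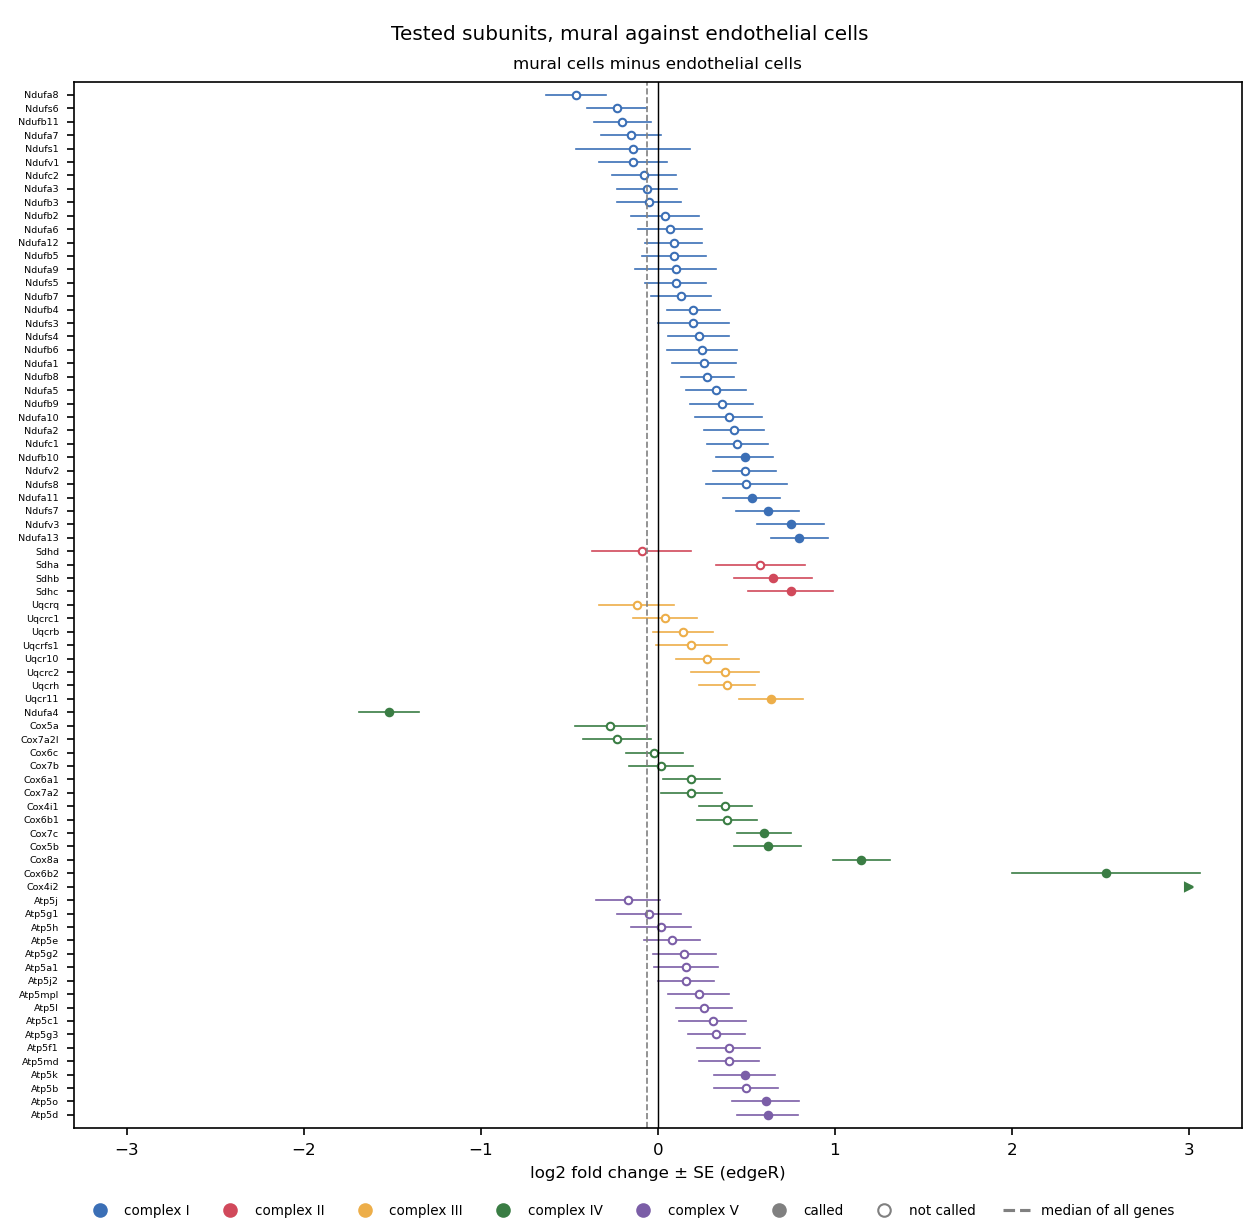
Log2 fold change of 77 of the 78 subunit genes tested between mural and endothelial cells, coloured by complex. Points are edgeR estimates with bars of 1 SE, filled points are called, an arrowhead marks a value beyond the axis, and the dashed line is the median of all genes at -0.06. To the left of that line lie 13 of the members drawn, with *Ndufa4* far to the left at -1.52 and *Cox8a* to the right at 1.15.

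Other genes of the pathway are given beside the share of all genes called, which was 30.9% higher and 26.3% lower between RGCs and upper-layer neurons, 19.9% and 15.5% in the GABAergic pair of cell types, and 7.5% and 8.19% between mural and endothelial cells. Of the 13 mitochondrially encoded subunits, 9 were called higher in upper-layer neurons than in RGCs and none lower, with a median log2 fold change of 0.53, and 9 were called higher in MGE interneurons than in GABAergic progenitors, with a median of 0.34. Of 17 genes of glycolysis, 12 were called lower in upper-layer neurons than in RGCs and 4 higher (median -0.74), and in the GABAergic pair 7 were called lower and 2 higher (median -0.34). Assembly factors of the complexes were called higher for 9 and lower for 5 of 45 between RGCs and upper-layer neurons. Enzymes of the tricarboxylic acid cycle were called higher for 3 and lower for 5 of 16, and regulators of mitochondrial biogenesis higher for 2 and lower for 4 of 13. Mitochondrial ribosomal proteins, which make the mitochondrially encoded subunits, were called lower for 18 and higher for 9 of 78 (median -0.09), while the median of all genes in this comparison was 0.12. Between mural and endothelial cells, 2 mitochondrially encoded subunits were called higher and none lower, and 3 enzymes of the tricarboxylic acid cycle were called higher and none lower (median 0.40).

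Cytochrome c, which carries electrons from complex III to complex IV, differed between cell types of both lineages. *Cycs* had 162 and 145 CPM in GABAergic progenitors and 75.5 and 67.7 CPM in MGE interneurons, with no overlap and a log2 fold change of -1.0 ± 0.16 (SE; adjusted p = 4.3e-06). It was also called higher in IPCs, with 146 and 164 CPM, than in RGCs, with 106 and 97.1 CPM (0.60 ± 0.15 (SE), adjusted p = 0.00369). Upper-layer neurons had 107 and 103 CPM, which overlap with RGCs. The difference between lineages was 1.27 ± 0.21 (SE; adjusted p = 7.8e-06). *Higd1a*, known for binding complex IV under low oxygen, was lower in upper-layer neurons than in RGCs, with 77.3 and 79.5 CPM against 159 and 169 CPM (log2 fold change -0.84 ± 0.11 (SE), adjusted p = 4.3e-08). In MGE interneurons it had 45.3 and 53.6 CPM against 91.8 and 105 CPM in GABAergic progenitors (-0.89 ± 0.17 (SE), adjusted p = 6.7e-05).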

How the data were processed

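Single-cell RNA libraries (10x Genomics 3′ chemistry) from 2 WT samples were analysed from the UMI counts per gene and barcode that the authors deposited, unnormalized. The submitters' processing notes name Cell Ranger 7.0.0 and mm10, and the file header gives Cell Ranger 7.1.0. Cells with 1500 to 60000 UMIs and under 10% mitochondrial UMIs were kept. A type needed at least 3 of its gate markers and 2 more than any other type, and 3 of 16 types with under 20 cells in a library were left out. Doublet calls (scanpy 1.11.5) were removed only in an alternative.

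Counts were summed per library and type. Genes with 10 counts or more in at least 2 sums entered a quasi-likelihood fit in edgeR 4.0.16 (under R 4.3.3) with TMM factors, all 13 types in 1 fit and the library as a block, since every library holds every type; Benjamini-Hochberg adjustment ran over 14986 genes. The SE is the log2 fold change divided by the square root of F. Comparisons numbered 9, and 12 alternatives were run. The test was checked on simulated counts. Named genes were up to 10 called members per direction with at least 10 CPM that moved alike in both libraries, plus isoform pairs. *Sdhd*, *Sdhb*, *Higd1a* and *Cycs* complete their groups. *Cox7c* between mural and endothelial cells lies outside this rule, and its call there is not among those followed across the alternatives. Counting intervals and shares of cells cover counting error only. Members and lists were chosen with earlier results of these data known. Counts cover every member, but 1 is not reported here by name and was not drawn.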

Additional observations from a re-analysis of the deposited data

Results flagged for a closer look

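The change from progenitor to neuron differed between the excitatory and GABAergic lineages, by a test of the difference itself in edgeR with Benjamini-Hochberg adjustment, for *Cox6a1* (0.70 on the log2 scale), *Cox7c* (0.53), *Ndufv1* (0.52), *Ndufb4* (0.44) and *Cox4i2* (-4.64). The *Cox6a1* call held in 10 of 12 alternatives, that of *Cox7c* in 4, and those of *Ndufv1* and *Ndufb4* in 1 each. *Cox4i2* had 4 UMIs at most in either GABAergic cell type summed over both libraries.

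Cells outside the comparisons also held subunit transcripts. In Cajal-Retzius-like cells, 19 in replicate 1 and 34 in replicate 2, the 83 genes took 2.095% and 3.495% of the UMIs. In erythroid-like cells, 16 and 29, they took 0.681% and 0.640%. In barcodes at or over the mitochondrial limit, 1664 and 958 with an accepted UMI total, they took 1.464% and 1.846%.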

How the results depend on the processing

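Named calls kept their direction under each alternative run, but of 60 pairs of gene and comparison 21 kept their call in all of those run for them and 39 lost it in at least 1. Counts of members called (higher and lower together) moved by more than 1.5 times as follows, and the cause was not tested. For a pair of types, a fit of only the compared types leaves 1 residual degree of freedom. Between upper-layer neurons and RGCs the count was 20, and 33 with only the compared cell types in the fit, 34 without ribosomal, mitochondrial and globin genes, and 41 with library totals alone. Between IPCs and RGCs it was 4, and 7 without a filter on low counts, 16 with only the compared types, 9 with 1 more gate marker, 0 with thinned cells (edgeR), 7 without doublets, 12 with a mitochondrial limit of 5% and 7 without ribosomal, mitochondrial and globin genes. Between upper-layer and newborn neurons it was 2, and 5 with RLE factors, 5 with DESeq2, 1 without a filter, 1 with no replicate block, 22 with only the compared types, 4 without doublets, 1 with a limit of 20%, 9 without ribosomal, mitochondrial and globin genes and 6 with library totals. Between upper-layer and deep-layer neurons it was 2, and 1 with RLE factors, 0 with DESeq2, 5 without a filter, 1 with no replicate block, 17 with only the compared types, 1 with 1 more gate marker, 4 with thinned cells, 7 without doublets, 1 with a limit of 5% and 5 without ribosomal, mitochondrial and globin genes. Between MGE interneurons and GABAergic progenitors it was 17, and 28 with only the compared types, 35 without doublets, 9 with a limit of 20%, 37 without ribosomal, mitochondrial and globin genes and 30 with library totals. Between MGE interneurons and upper-layer neurons it was 15, and 8 with RLE factors, 7 with DESeq2, 28 without a filter, 9 with no replicate block, 4 with thinned cells, 7 with a limit of 5% and 8 with a limit of 20%. Between MGE and CGE interneurons it was 1, and 2 without a filter, 0 with no replicate block (edgeR), 2 with only the compared types, 2 with 1 more gate marker, 3 with thinned cells, 2 without doublets, 0 with a limit of 5% and 2 without ribosomal, mitochondrial and globin genes. Between mural and endothelial cells it was 17, and 10 with thinned cells and 26 with library totals. For the difference between lineages it was 5, and 3 with RLE factors, 2 without a filter, 1 with no replicate block, 3 with only the compared types, 1 with 1 more gate marker, 3 with thinned cells, 3 with a limit of 5%, 2 with a limit of 20%, 3 without ribosomal, mitochondrial and globin genes and 3 with library totals.

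The share of UMIs taken by the members moved by more than the SD of the libraries in 3 of 13 types with thinned cells. It moved in 2 without doublets and in 2 with a limit of 20%. At a limit of 5% it moved in 4, which were RGCs, newborn, upper-layer and deep-layer neurons, and not in 5. The other types had too few cells at that limit. Leaving out 1 library leaves no residual degrees of freedom, so no test was made. Without replicate 1, 31 of the 60 named fold changes and 3 of 9 member medians moved by more than the spread between libraries, and without replicate 2, 40 and 5 did. The named values of a single library are ratios without normalization factors, so they also carry the change of scaling. The mural and endothelial comparison was not run at a limit of 5%, where too few cells remained. With 2 libraries and 38 cells in the smallest mural sum, small differences may have been missed at this depth.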
